A study of Mus musculus with 10 samples.

Results

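Major histocompatibility complex (MHC) genes and the genes that prepare antigens for them were examined in the livers of C57BL/6 mice after systemic VEGF gene transfer. The group comprised 57 of the 24016 transcript rows in the deposited table: the 43 rows whose symbol begins with H2-, the name of the mouse MHC, and the rows of B2m, Tap1, Tap2, Tapbp, Psmb8, Psmb9, Psmb10, Psme1, Psme2, Nlrc5, Ciita, Cd74, Cd1d1 and Erap1. They were chosen by name and not by their values, although earlier results of these data were known when the choice was made. Male mice of 8 to 12 weeks were injected through the tail vein with AdVEGF, an adenovirus in which the CMV promoter drives VEGF-A, or with AdCMV, the same kind of virus with the promoter and no transgene. Each group had 5 mice, every mouse of both groups had received an adenovirus, none was uninjected, and whole liver was taken on day 6. Total RNA depleted of ribosomal RNA was sequenced, and levels are RPKM, the tags of a gene scaled to its transcript length and to the total of the library.

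Class I molecules display peptides from inside the cell to CD8 T cells on almost every nucleated cell. They consist of a heavy chain and the shared light chain β2-microglobulin. Their peptides are cut by the proteasome, in which interferon-gamma exchanges catalytic subunits for the inducible Psmb8, Psmb9 and Psmb10 to form the immunoproteasome, and are carried into the endoplasmic reticulum by the transporter Tap1-Tap2. Class II molecules display peptides from outside the cell to CD4 T cells and are made mainly by dendritic cells, B cells and macrophages under the coactivator Ciita, whereas Nlrc5 is the corresponding coactivator of class I. In liver, hepatocytes carry little class I until they are exposed to interferon, and Kupffer and dendritic cells carry class II.

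The libraries held 5596570 to 13494000 tags. Hepatocyte transcripts dominated all of them, with the 5 hepatocyte markers in the table summing to 11087 to 17049 RPKM in AdCMV and 23781 to 28188 RPKM in AdVEGF mice. The Mup genes, which encode abundant urinary proteins, took 36.6% ± 12.2 (SD, n = 5) of the reads in AdCMV and 16.3% ± 7.92 (SD, n = 5) in AdVEGF mice, so that the same level of another gene reads as a higher RPKM in AdVEGF. The median log2 fold change over the 13933 rows tested was accordingly 0.38, and -0.0044 after the libraries were rescaled by the median of their gene ratios (median-ratio scaling). Both scales are given below, and a gene was called where the Benjamini-Hochberg adjusted p-value of limma was under 0.05 and the log2 fold change (on log2 of RPKM + 0.1) was over 1 or under -1. In whole liver, fewer cells of a type and less RNA per cell cannot be told apart.

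Antigen presentation transcripts were lower in AdVEGF livers. Of the 57 members, 45 averaged more than 0.5 RPKM in 1 or both groups and were tested, and 9 of these were downregulated: the class I heavy chain rows H2-Q7, H2-Q9, H2-Q5 and H2-L, the peptide supply genes Psmb9, Psmb8 and Tap1, and the class II genes Cd74 and H2-Eb1. Over all genes tested, 1.54% were called lower and 13% higher on the deposited RPKM. A single member, H2-Ob, was called higher. After median-ratio scaling, 26 members were called lower and 0 higher (1 at an unadjusted p under 0.05 in limma, and 1 called by voom), where 3.14% of all genes were called lower and 7.77% higher. The 26 included all 9 of the first scale, and the other 17 differed by less than the fold limit or had an adjusted p over 0.05 before the rescaling. The median log2 fold change of the 45 members was -0.73, which is -1.11 relative to the median of all genes, and -1.10 after median-ratio scaling. On the deposited RPKM, 39 of the 45 had a negative log2 fold change, and 43 after rescaling. In 12 members every AdVEGF mouse lay below every AdCMV mouse (25 after rescaling), an arrangement shown by 1.29% of all genes tested (7.16% after rescaling). The reads of the members together made up 0.473% to 0.972% of each AdCMV library and 0.415% to 0.543% of each AdVEGF library.

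**Figure D1:**
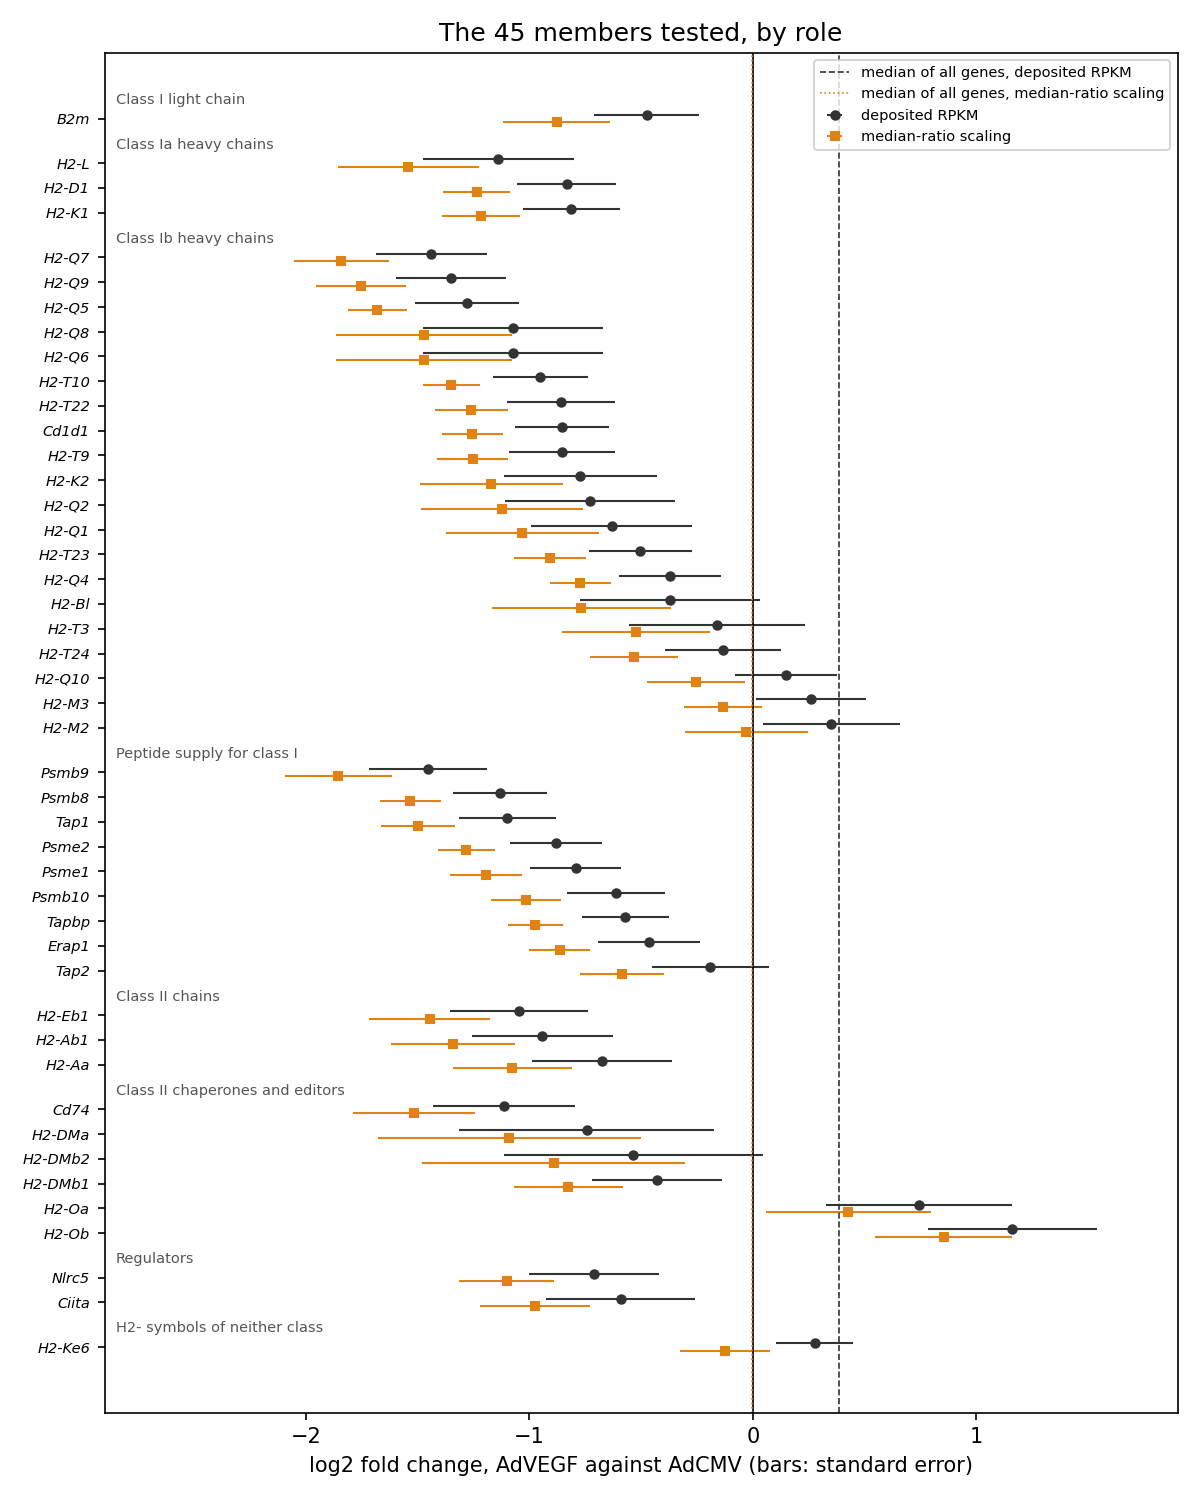
Log2 fold change of AdVEGF against AdCMV for the 45 members tested, grouped by role, on the deposited RPKM (circles) and after median-ratio scaling (squares), with the standard error of the fit as bars and the median of all genes as vertical lines. All members of the peptide supply list lie to the left of 0 on both scales, and H2-Q10, H2-M3, H2-M2 and H2-Ke6 cross 0 between the scales.

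The position of the genes is shared by most of them. In the deposited table, which uses the mm9 build, 48 members lay on chromosome 17 between 34056423 and 37620474, a stretch of 3.56 Mb, and 9 lay elsewhere, among them B2m (chr2:121973423-121978818) and Nlrc5 (chr8:96996663-97051172). Psmb9 (chr17:34319044-34324275, minus strand) and Tap1 (chr17:34324501-34334170, plus strand) are read away from each other from neighbouring starts, and Psmb8 (chr17:34335140-34338399) and Tap2 (chr17:34341424-34353266) follow on the plus strand. The stretch between the starts of Psmb9 and Tap1 is shown here because it is the promoter of a pair that was downregulated together, and the stretches before H2-K1, H2-D1, H2-Q7 and H2-Q10 because the first 3 were lower in every AdVEGF mouse while H2-Q10 was not. B2m is shown as the light chain with which they pair. The sequences are those of RefSeq on GRCm38.p6, and each runs up to the base before the transcript start. Capitals mark 4 short motifs, searched on both strands and not overlapping with one another here: GAAANNGAA of the interferon-stimulated response element (ISRE), TTCNNNGAA of the gamma-activated site (GAS), TGACG of the X2 box and CCAAT of the Y box, the last 2 being parts of the module through which Nlrc5 and Ciita act.
H2-K1 (chr17:34000334-34000483, minus strand): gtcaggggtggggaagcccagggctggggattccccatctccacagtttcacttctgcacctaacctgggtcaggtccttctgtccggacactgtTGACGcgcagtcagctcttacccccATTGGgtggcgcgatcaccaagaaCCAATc
H2-D1 (chr17:35262944-35263093, plus strand): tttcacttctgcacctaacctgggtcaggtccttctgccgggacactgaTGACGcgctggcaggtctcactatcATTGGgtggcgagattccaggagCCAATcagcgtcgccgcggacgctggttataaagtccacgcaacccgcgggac
H2-Q7 (chr17:35439005-35439154, plus strand): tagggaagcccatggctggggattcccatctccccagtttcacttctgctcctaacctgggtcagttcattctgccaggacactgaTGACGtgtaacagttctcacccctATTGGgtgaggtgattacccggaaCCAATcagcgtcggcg
H2-Q10 (chr17:35469939-35470088, plus strand): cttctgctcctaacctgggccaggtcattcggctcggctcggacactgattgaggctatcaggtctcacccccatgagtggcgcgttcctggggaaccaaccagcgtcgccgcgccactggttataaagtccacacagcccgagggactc
B2m (chr2:122147537-122147686, plus strand): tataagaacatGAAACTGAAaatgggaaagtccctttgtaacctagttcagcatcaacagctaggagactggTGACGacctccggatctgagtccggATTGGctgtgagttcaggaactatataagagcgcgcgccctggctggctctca
Psmb9 to Tap1 (chr17:34187331-34187555, plus strand): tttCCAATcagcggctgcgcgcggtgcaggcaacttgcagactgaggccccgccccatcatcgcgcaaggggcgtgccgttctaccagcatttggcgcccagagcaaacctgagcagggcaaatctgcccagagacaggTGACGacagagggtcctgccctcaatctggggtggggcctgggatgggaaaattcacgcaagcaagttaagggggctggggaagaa

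The printed stretches of H2-K1, H2-D1 and H2-Q7 each held TGACG once and CCAAT on both strands, in the same order. The H2-Q10 window was 84.5% identical to that of H2-D1 over the whole 300 bases around the start, and held none of the 4 motifs. B2m held a match to the ISRE string, TGACG and CCAAT, and the Psmb9 to Tap1 stretch held TGACG and CCAAT. Of the 57 members, 40 were matched by symbol to a window of 300 bases, of which 250 precede and 50 follow the start. TGACG was in 16 of them (40%) and in 20.8% of all 32851 windows, CCAAT in 32 (80%) and in 37.4%, the ISRE in 5 (12.5%) and in 8.56%, and the GAS in 4 (10%) and in 8.30%. Among the members called lower after median-ratio scaling, 8 of 14 windows held TGACG, against 4 of the 15 of the other members tested, and 10 of 14 against 12 of 15 held CCAAT. The ISRE string was in 2 of 14 against 3 of 15, and the GAS in 1 of 14 against 2 of 15. Related heavy chain genes share much of this sequence and Psmb9 and Tap1 share a window, so these are counts of windows and not of independent promoters. A match is a description of letters, not a site in use.

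The classical class I heavy chains H2-K1 and H2-D1, which present peptides to CD8 T cells, were lower in every AdVEGF mouse. H2-K1 RPKM was 822, 869, 996, 521 and 729 in AdCMV mice 1 to 5 and 505, 423, 475, 404 and 395 in AdVEGF mice 1 to 5, the order used for all values by mouse below. H2-D1 stood at 451, 474, 626, 279 and 423 RPKM in AdCMV and at 257, 254, 259.8, 257 and 202 RPKM in AdVEGF mice. The groups did not overlap in either gene, AdCMV mouse 4 being the lowest control in both, and the AdVEGF mice lay close together. The log2 fold change was -0.81 (SE 0.22, adjusted p = 0.0122) for H2-K1 and -0.83 (SE 0.22, adjusted p = 0.0120) for H2-D1, both short of the fold limit, and after median-ratio scaling -1.22 (adjusted p = 0.000289) and -1.23 (adjusted p = 7.49e-05), both called. The row of H2-L, a heavy chain that the haplotype of C57BL/6 mice lacks, lies inside that of H2-D1 on the same strand. It read 192, 96.2, 312, 116 and 311 RPKM in AdCMV and 111, 70.4, 89.0, 47.0 and 123 RPKM in AdVEGF mice, with overlapping groups. H2-L was called lower at -1.14 (SE 0.34, adjusted p = 0.0223), and reads of H2-D1 and H2-L cannot be told apart.

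B2m, the light chain of class I molecules and the most abundant member, was called on neither scale. Its RPKM was 2440.5, 2775, 2567, 1744 and 1789.6 in AdCMV and 1749, 1688, 1791, 1589 and 1248 in AdVEGF mice. AdCMV mice 4 and 5 lay within the AdVEGF range, and the other 3 above it. The log2 fold change was -0.47 (SE 0.23, adjusted p = 0.146), and -0.88 (adjusted p = 0.0188) after median-ratio scaling, when every AdVEGF mouse was below every AdCMV mouse but the fold limit was not reached.

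**Figure D2:**
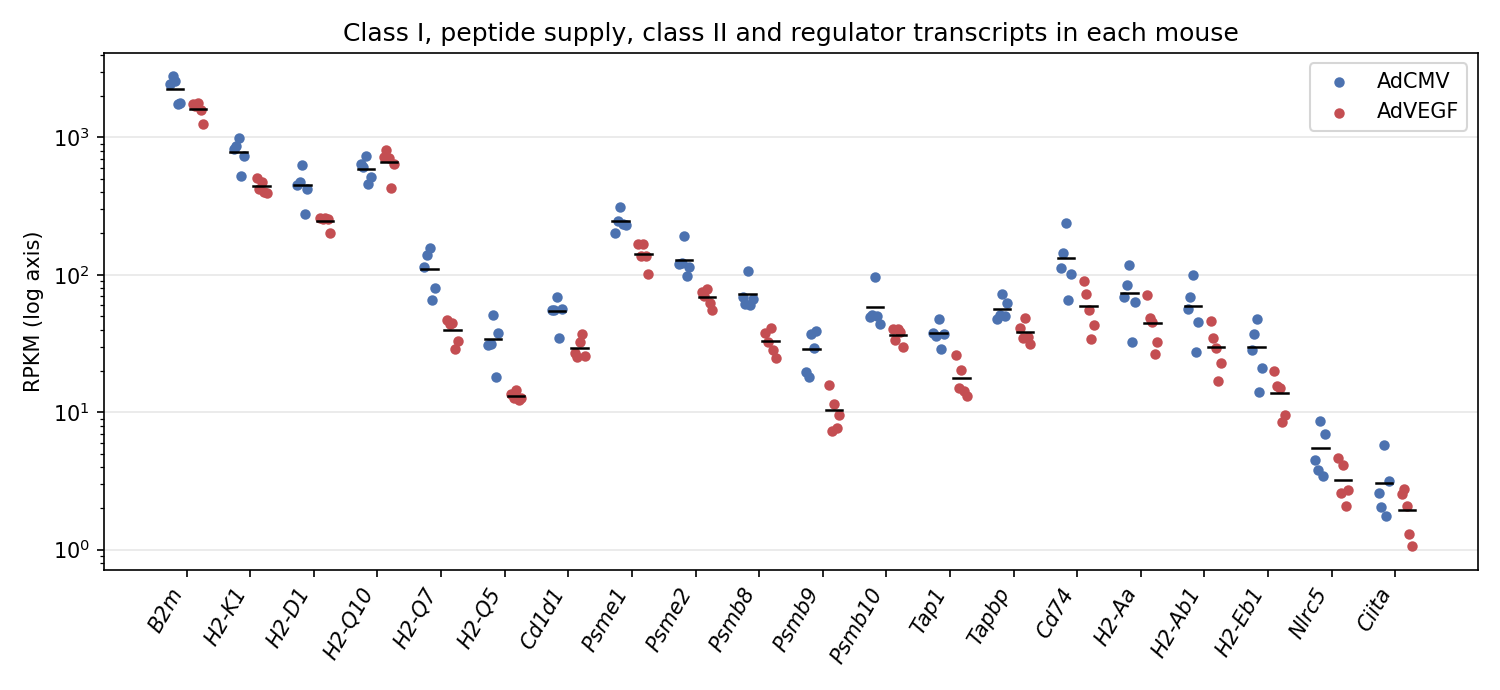
RPKM on a log axis of 20 members in each of 5 AdCMV (blue) and 5 AdVEGF (red) mice, with points for mice and bars for group means. H2-Q5, Psmb8, Psmb9 and Tap1 separate fully between the groups, whereas B2m, H2-Aa and Ciita overlap and so does H2-Q10.

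Among the class Ib heavy chains, which present to restricted or innate-like T cells and NK cells, H2-Q7 and H2-Q9, which encode Qa-2, and H2-Q5 had the lowest log2 fold changes on both scales. The H2-Q5 row is a transcript classed as noncoding in RefSeq, so it is a class Ib row by name only. H2-Q7 stood at 113, 139, 158, 65.4 and 80.1 RPKM in AdCMV and at 46.6, 44.2, 44.7, 28.9 and 33.2 RPKM in AdVEGF mice. H2-Q9, whose row lies within that of H2-Q7, stood at 104, 114, 155, 59.8 and 95.5 RPKM in AdCMV and at 46.3, 41.0, 44.6, 25.9 and 44.3 RPKM in AdVEGF mice. H2-Q5 read 30.7, 31.3, 51.2, 18.2 and 37.9 RPKM in AdCMV and 13.6, 12.8, 14.6, 12.3 and 12.6 RPKM in AdVEGF mice. In all of these rows the highest AdVEGF mouse was below the lowest AdCMV mouse. They were downregulated with log2 fold changes of -1.44 (SE 0.25, adjusted p = 0.000412), -1.35 (SE 0.25, adjusted p = 0.000684) and -1.28 (SE 0.23, adjusted p = 0.00070), and were called in each of the 21 alternatives, including every one that left out a mouse. Of the 50-base windows of the GENCODE vM21 transcript of H2-Q7, 34.9% also occur in another gene, and 35.4% of those of H2-Q5, so how reads were divided between them rests on the mapping.

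None of the 6 T region genes tested was called on the deposited RPKM, and their log2 fold changes ran from -0.95 to -0.13. H2-T10 and H2-T22 are named for class I-like ligands of gamma-delta T cells, although the H2-T10 row is a transcript classed as noncoding in RefSeq. Of their windows, 43.0% and 44.7% occur in another gene, mostly in each other. H2-T10 was at 14.3, 10.42, 21.1, 12.2 and 17.7 RPKM in AdCMV and at 7.96, 6.86, 8.66, 7.20 and 7.21 RPKM in AdVEGF mice, and the groups did not overlap. H2-T22 was at 69.3, 47.8, 104, 44.1 and 84.3 RPKM in AdCMV and at 38.9, 31.0, 46.0, 30.9 and 38.2 RPKM in AdVEGF mice, 4 of which were below all controls. H2-T9, whose row nearly coincides with that of H2-T22, gave 73.8, 51.0, 110.4, 47.1 and 88.2 RPKM in AdCMV and 41.0, 33.1, 48.9, 33.0 and 40.8 RPKM in AdVEGF mice. These differences were -0.95 (SE 0.21, adjusted p = 0.00348), -0.86 (SE 0.24, adjusted p = 0.0161) and -0.85 (SE 0.24, adjusted p = 0.0158) on the log2 scale, and -1.35, -1.26 and -1.25 after median-ratio scaling, when all of them were called. H2-T23, the heavy chain of Qa-1 that is recognised by the NK cell receptors CD94-NKG2, had a log2 fold change of -0.50 (adjusted p = 0.117), and -0.91 (adjusted p = 0.00138) after rescaling, and was called on neither scale. H2-T3 (-0.16, adjusted p = 0.780) and H2-T24 (-0.13, adjusted p = 0.725) overlapped between the groups and were called on neither scale.

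Cd1d1, which presents lipids to NKT cells and lies outside the complex at chr3:86799758-86803262 (mm9), followed the same course. It was at 55.2, 55.7, 69.1, 34.6 and 56.5 RPKM in AdCMV and at 27.2, 25.4, 32.4, 37.4 and 25.5 RPKM in AdVEGF mice. AdVEGF mouse 4 was above AdCMV mouse 4, and the other 4 AdVEGF mice were below all controls. The log2 fold change was -0.85 (SE 0.21, adjusted p = 0.00706), and -1.26 (adjusted p = 2.82e-05, called) after median-ratio scaling. Its close relative Cd1d2, which holds all of the 25.8% of Cd1d1 windows found in another gene, was called lower on both scales at -1.18 (adjusted p = 0.0441) and -1.57 (adjusted p = 0.0126), with overlapping groups, and in 12 of 21 alternatives.

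A further set of class I rows varied widely between mice of the same group. H2-Q6 stood at 38.8, 18.3, 71.2, 19.7 and 65.2 RPKM in AdCMV and at 20.1, 15.3, 19.8, 7.69 and 33.2 RPKM in AdVEGF mice, and H2-Q8, whose row spans the same place, took the same 61 to 547 reads. H2-Q8 read 37.4, 17.8, 69.1, 19.1 and 63.2 RPKM in AdCMV and 19.3, 14.9, 19.2, 7.46 and 32.2 RPKM in AdVEGF mice. H2-K2, a transcript classed as noncoding in RefSeq, was at 19.7, 12, 32.6, 11.3 and 31.5 RPKM in AdCMV and at 12.6, 7.97, 15, 6.34 and 19.4 RPKM in AdVEGF mice. AdCMV mice 3 and 5 were the highest and AdCMV mice 2 and 4 the lowest in all of these rows and in H2-L. H2-Q1 gave 25.9, 14.2, 45.4, 15 and 46.6 RPKM in AdCMV and 19.1, 12.7, 19.7, 9.16 and 29.4 RPKM in AdVEGF mice. H2-Q2 gave 9.25, 4.21, 16.3, 4.87 and 14.5 RPKM in AdCMV and 5.55, 3.95, 6.72, 2.59 and 9.0 RPKM in AdVEGF mice. Both were highest in AdCMV mice 3 and 5 again and lowest in AdVEGF mice 2 and 4, which were the most deeply sequenced libraries of their group, as AdCMV mice 2 and 4 were of theirs (7427382 to 13494012 tags in these 4, and 5596566 to 7879667 in the other 6). The part of depth in these values was not tested. On the deposited RPKM the log2 fold changes were -1.07 (adjusted p = 0.061) for H2-Q6 and for H2-Q8, -0.77 for H2-K2, -0.73 for H2-Q2 and -0.63 for H2-Q1, none of them called, and after median-ratio scaling all were called, between -1.03 (H2-Q1, adjusted p = 0.0462) and -1.47 (H2-Q8, adjusted p = 0.0170).

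The remaining heavy chains were called on neither scale. H2-Q10, a secreted class I protein of hepatocytes, was at 643, 606, 729, 461 and 511 RPKM in AdCMV and at 717, 812, 703, 427 and 644 RPKM in AdVEGF mice. It was thus above H2-K1 in every AdVEGF mouse and below H2-K1 in every AdCMV mouse. Its log2 fold change was 0.15 (SE 0.23, adjusted p = 0.642), and -0.25 (adjusted p = 0.445) after median-ratio scaling, and 8.03% of its windows occur in another gene. H2-M3, which presents formylated bacterial peptides, H2-M2 and H2-T24 had log2 fold changes of 0.26, 0.35 and -0.13. H2-Q4 and H2-Bl stood at -0.37 each and H2-T3, the thymus leukaemia antigen, at -0.16. After rescaling, H2-Q4 had an adjusted p of 0.00133 at -0.77, below the fold limit, and every AdVEGF mouse was then below every AdCMV mouse. Over the 23 class I heavy chain rows tested, 4 were called lower on the deposited RPKM and 15 after median-ratio scaling.

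Genes that make and load class I peptides had negative log2 fold changes in all 9 rows on both scales. Of these, 3 were called lower on the deposited RPKM and 6 after median-ratio scaling. Psmb9 was at 19.7, 18.2, 37.4, 29.5 and 38.7 RPKM in AdCMV and at 15.8, 7.25, 11.4, 7.70 and 9.50 RPKM in AdVEGF mice. Psmb8 was at 68.7, 61.7, 107, 60.2 and 66.3 RPKM in AdCMV and at 37.5, 32.6, 40.9, 28.5 and 24.9 RPKM in AdVEGF mice. Psmb10 was at 49.5, 51.2, 96.1, 49.8 and 43.5 RPKM in AdCMV and at 40.5, 33.3, 40.6, 38.3 and 30.1 RPKM in AdVEGF mice. No mouse of one group lay within the range of the other in any of these genes, and AdCMV mouse 3 stood above the other controls in Psmb8 and Psmb10. Psmb9 and Psmb8 were downregulated at -1.45 (SE 0.26, adjusted p = 0.000665) and -1.13 (SE 0.21, adjusted p = 0.000805), and Psmb10 had a log2 fold change of -0.61 (SE 0.22, adjusted p = 0.0517). After median-ratio scaling all of them were called, at -1.85, -1.53 and -1.01. None of the windows of these transcripts occurs in another gene.

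None of the constitutive subunits that they replace was called. Psmb5, Psmb6 and Psmb7 had log2 fold changes of -0.03 (adjusted p = 0.942), 0.16 (adjusted p = 0.606) and -0.12 (adjusted p = 0.694). After median-ratio scaling they were at -0.43 (adjusted p = 0.123), -0.24 (adjusted p = 0.280) and -0.52 (adjusted p = 0.0195). Of the 16 genes listed for the constitutive proteasome, 0 were called on either scale by limma on RPKM or by voom on reads, and their median log2 fold change was 0.04, and -0.37 after rescaling. At an unadjusted p under 0.05 limma gave 1 of them, Psma5, on the deposited RPKM and 7 after median-ratio scaling, all of them lower. Besides Psmb7, the adjusted p of limma after rescaling was under 0.05 for Psma5 (-0.89, 0.000364), Psme4 (-0.56, 0.00426) and Psma7 (-0.71, 0.00559). These falls were short of the fold limit. A ratio of both subunits within a mouse does not depend on the scaling. The ratio of Psmb8 to Psmb5 was 0.608, 0.436, 0.661, 0.713 and 0.726 in AdCMV and 0.321, 0.319, 0.315, 0.188 and 0.325 in AdVEGF mice. For Psmb9 to Psmb6 it was 0.239, 0.210, 0.318, 0.502 and 0.544 in AdCMV and 0.153, 0.0783, 0.123, 0.0726 and 0.152 in AdVEGF mice. For Psmb10 to Psmb7 it was 0.748, 0.671, 0.883, 0.937 and 0.725 in AdCMV and 0.537, 0.483, 0.662, 0.579 and 0.546 in AdVEGF mice. The groups were separate in each ratio, by -1.10, -1.61 and -0.49 on the log2 scale. The two-sided exact permutation test over mice gave p = 0.00794 for each of them, the smallest value that 5 against 5 can give, and an adjusted p of 0.0106 over the 4 ratios tested. By contrast, the ratio of H2-K1 to H2-Ab1, a class I to a class II gene, ran from 10.0 to 19.0 in AdCMV and from 11 to 23.6 in AdVEGF mice (difference 0.13 on the log2 scale, exact permutation p = 0.611).

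**Figure D3:**
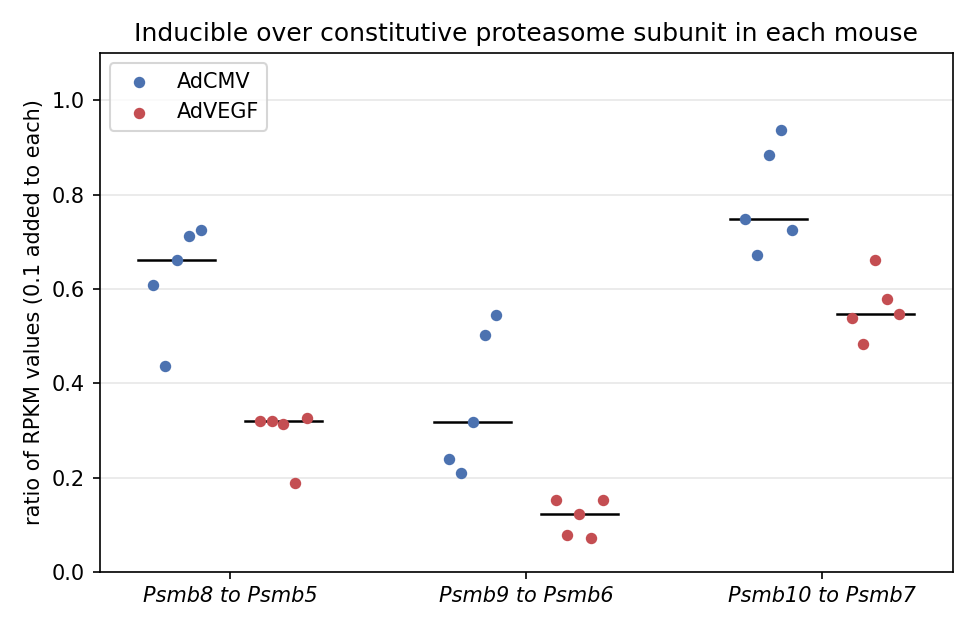
Ratio of the RPKM of each inducible proteasome subunit to that of the constitutive subunit it replaces, in 5 AdCMV (blue) and 5 AdVEGF (red) mice, with points for mice and bars for medians. In all pairs the highest AdVEGF mouse is below the lowest AdCMV mouse, and the median of Psmb9 to Psmb6 is 0.318 in AdCMV and 0.123 in AdVEGF mice.

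Tap1, a chain of the peptide transporter whose start is separated by 225 bases from that of Psmb9 in GRCm38.p6, was at 37.4, 35.6, 47.9, 29.1 and 37.1 RPKM in AdCMV and at 25.9, 15.1, 20.3, 14.4 and 13.2 RPKM in AdVEGF mice. It was downregulated without overlap at -1.10 (SE 0.22, adjusted p = 0.00137). Its partner chain Tap2, at 7.52 ± 3.19 RPKM in AdCMV and 6.21 ± 1.03 RPKM in AdVEGF (mean ± SD, n = 5 each), was far less abundant and had a log2 fold change of -0.19 (SE 0.26, adjusted p = 0.604). The proteasome activator PA28 is a ring of Psme1 and Psme2. Psme1 was at 200.0, 247, 311, 234 and 232 RPKM in AdCMV and at 168, 137, 168, 137 and 101 RPKM in AdVEGF mice. Psme2 was at 119, 121, 190.2, 98.0 and 113 RPKM in AdCMV and at 75.3, 69.6, 79.0, 62.7 and 55.8 RPKM in AdVEGF mice. In both the groups did not overlap, with log2 fold changes of -0.79 (SE 0.20, adjusted p = 0.00982) and -0.88 (SE 0.21, adjusted p = 0.00515), and both were called after median-ratio scaling at -1.19 and -1.28. Of the Psme2 windows, 59.3% occur in the near-copy Psme2b. Tapbp, which holds class I to the transporter, had a log2 fold change of -0.57 (SE 0.19, adjusted p = 0.0408), and Erap1, which trims peptides to length, one of -0.46 (SE 0.23, adjusted p = 0.142). Of the general loading chaperones Calr, Canx, Pdia3, Tapbpl and Hspa5, 0 of 5 were called on either scale by limma or voom, and their log2 fold changes ran from -0.27 to 0.11. At an unadjusted p under 0.05 limma gave 0 of them on the deposited RPKM and 4, all lower, after median-ratio scaling. Their log2 fold changes then ran from -0.68 to -0.29, and Pdia3 had an adjusted p of 0.00594 at -0.54.

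Class II chains and the invariant chain had lower means in AdVEGF livers, with groups that overlapped. H2-Aa was at 68.9, 83.9, 117, 32.4 and 63.6 RPKM in AdCMV and at 71.2, 48.7, 45.1, 26.6 and 32.3 RPKM in AdVEGF mice. H2-Ab1, its partner chain, was at 56.1, 68.8, 99.3, 27.4 and 45.1 RPKM in AdCMV and at 45.8, 34.5, 29.4, 17 and 22.7 RPKM in AdVEGF mice. H2-Eb1 was at 28.3, 36.8, 48.1, 14.0 and 20.9 RPKM in AdCMV and at 19.9, 15.6, 15.1, 8.51 and 9.57 RPKM in AdVEGF mice. In all 3 genes AdCMV mouse 3 was the highest and AdCMV mouse 4 the lowest control, below several AdVEGF mice, and the groups overlapped. Cd74, the invariant chain that guides class II through the cell, was at 112, 144, 238, 65.1 and 102 RPKM in AdCMV and at 89.8, 72.7, 55.7, 34.2 and 43.3 RPKM in AdVEGF mice, with the same order of controls at both ends. Cd74 and H2-Eb1 were downregulated at -1.11 (SE 0.32, adjusted p = 0.0174) and -1.05 (SE 0.31, adjusted p = 0.0219), while H2-Ab1 at -0.94 (SE 0.31, adjusted p = 0.0383) and H2-Aa at -0.67 (SE 0.31, adjusted p = 0.123) were not called. After median-ratio scaling they were all called, between -1.08 (H2-Aa) and -1.51 (Cd74), and the groups then overlapped in H2-Aa only.

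The editors of class II peptides did not follow one direction. H2-DMa and H2-DMb1, the chains of the exchange factor H2-DM, had log2 fold changes of -0.74 and -0.43, and H2-DMb2, an alternative β chain that shares windows with H2-DMb1, -0.54, none of them called on either scale. H2-Ob, the β chain of H2-O, which restrains H2-DM and is made mainly in B cells, was at 0.208, 0.223, 0.238, 0.159 and 0.130 RPKM in AdCMV and at 0.803, 0.607, 0.537, 0.462 and 0.391 RPKM in AdVEGF mice, or 2 to 8 and 7 to 12 reads. The groups did not overlap, and H2-Ob was called higher at 1.16 (SE 0.38, adjusted p = 0.0341) on the deposited RPKM and not after median-ratio scaling (0.85, adjusted p = 0.0623). H2-Ob passed the limit for testing only through its AdVEGF mean (0.56 RPKM, against 0.192 RPKM in AdCMV), so its call is not independent of that limit. It was called in 7 of the 19 alternatives that could be computed for it. The other chain, H2-Oa, with 1 to 9 reads a mouse, had a log2 fold change of 0.74 (adjusted p = 0.194). The genes listed for class II processing, the proteases Ctss, Ctsl, Ctsb, Ctsd and Lgmn and the thiol reductase Ifi30, had log2 fold changes of 0.22 to 0.95, and 0 of 6 were called on either scale by limma or voom. After median-ratio scaling they ran from -0.18 to 0.55, and 2 of the 6 were negative. At an unadjusted p under 0.05 limma gave 4 of them as higher on the deposited RPKM and 1 after median-ratio scaling. Lgmn had an adjusted p in limma of 0.0133 at 0.95 on the deposited RPKM and of 0.0304 at 0.55 after rescaling, both short of the fold limit.

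Of the coactivators, Nlrc5 was at 4.49, 3.82, 8.63, 3.42 and 6.98 RPKM in AdCMV and at 4.67, 2.60, 4.12, 2.07 and 2.72 RPKM in AdVEGF mice. Ciita was at 2.59, 2.05, 5.78, 1.76 and 3.19 RPKM in AdCMV and at 2.53, 2.76, 2.08, 1.31 and 1.05 RPKM in AdVEGF mice. The groups overlapped, with AdCMV mouse 3 the highest and AdCMV mouse 4 the lowest control in both genes. The log2 fold changes were -0.71 (SE 0.29, adjusted p = 0.0823) and -0.59 (SE 0.33, adjusted p = 0.196), and -1.10 (adjusted p = 0.00245, called) and -0.97 (adjusted p = 0.0131) after median-ratio scaling. Rfx5, a subunit of the factor that binds the X box and recruits both, had a log2 fold change of 0.09 (adjusted p = 0.743), and -0.30 after rescaling. H2-Ke6, a steroid dehydrogenase that lies in the complex, carries the H2- name and presents nothing, was at 30.6 ± 3.76 RPKM in AdCMV and 37.0 ± 3.03 RPKM in AdVEGF (mean ± SD, n = 5 each), with a log2 fold change of 0.28 (adjusted p = 0.243).

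Interferon-gamma is known to induce class I, the immunoproteasome and Ciita, and the genes listed upstream of them held calls in both directions on the deposited RPKM. Ifng, the cytokine, was at 0.575, 0.617, 0.845, 0.353 and 0.289 RPKM in AdCMV mice, or 2 to 10 reads, and was listed at 0 in 4 AdVEGF mice and at 0.112 RPKM, a single read, in AdVEGF mouse 2. With 29 reads in the AdCMV and 1 in the AdVEGF libraries together, the ratio of AdVEGF to AdCMV was 0.0451 per tag (exact 95% interval 0.0011 to 0.272, counting error only). Irf1, an interferon-induced factor that binds class I promoters, was at 25.3, 29.5, 40.7, 27.7 and 39.1 RPKM in AdCMV and at 18.3, 17.8, 18.2, 15.7 and 18.1 RPKM in AdVEGF mice. In both genes every AdVEGF mouse was below every AdCMV mouse. Ifng was called lower on both scales, at -2.38 (SE 0.49, adjusted p = 0.00208) on the deposited RPKM, and so was the feedback inhibitor Socs1 at -2.31 (SE 0.35, adjusted p = 0.000124). Ifng passed the limit for testing only through its AdCMV mean (0.536 RPKM, against 0.0224 RPKM in AdVEGF), so its call is not independent of that limit. The fitted value of Ifng depends on the pseudocount, and with 1 added it was -0.58 and not called. Irf1 was at -0.85 (SE 0.19, adjusted p = 0.00324), and at -1.26 (called) after rescaling. Ifngr1, a chain of the receptor, and Nfya, a subunit of the factor that binds CCAAT, were called higher on the deposited RPKM at 1.22 (adjusted p = 0.00107) and 1.03 (adjusted p = 0.0120), and not after median-ratio scaling (0.82 and 0.65). Of the 15 genes listed as upstream, 2 were called lower and 2 higher, and 3 lower and 0 higher after rescaling, with a median log2 fold change of 0.47 and 0.08. Among all genes tested 1.54% were called lower and 13% higher, and 3.14% and 7.77% after rescaling. The 2 higher calls among the 15 are thus near the share of all genes. Among the 6 tested of the 8 other class I-like genes, Cd1d2 was called lower and Procr, the protein C receptor of endothelium, higher at 1.33 (adjusted p = 0.00275), the latter not after median-ratio scaling (0.95).

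**Figure D4:**
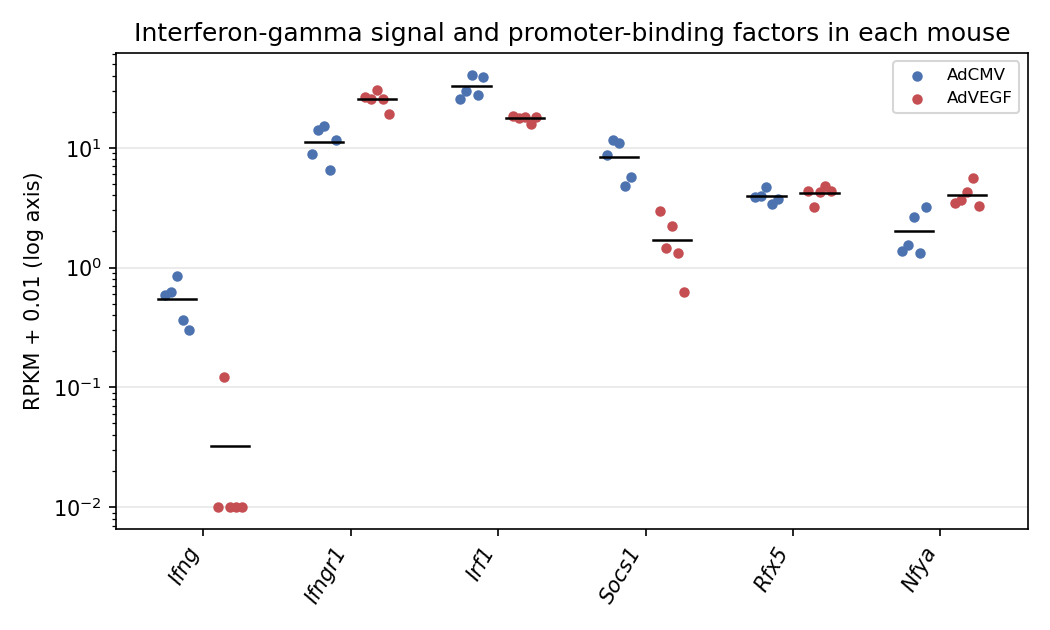
RPKM (with 0.01 added, log axis) of the interferon-gamma gene, its receptor chain and factors that act on class I and class II promoters in 5 AdCMV (blue) and 5 AdVEGF (red) mice, with points for mice and bars for group means. Irf1 and Socs1 are lower in every AdVEGF mouse, 4 AdVEGF mice have no Ifng read, and Rfx5 lies at 3.19 to 4.83 RPKM in both groups.

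Some markers of T and NK cells were lower in AdVEGF mice. Of the 15 T and NK cell markers, 14 were in the table, their summed level was 32.3 to 81.0 RPKM in AdCMV and 24.9 to 43.1 RPKM in AdVEGF mice, and 6 of the 11 tested (Cd3e, Cd3g, Cd8a, Nkg7, Gzmb and Prf1) were called lower (8 after median-ratio scaling), with none of the markers at 0 throughout a group. Gzma, Klrk1 and Cd8b1 were called on neither scale. Of the T and NK cell markers below the limit for testing, Ncr1 and Klrb1c had higher means in AdVEGF mice. These were 0.377 against 0.113 RPKM and 0.320 against 0.196 RPKM in AdCMV, at 0 to 14 reads a mouse. Cd4 had a lower mean in AdVEGF mice (0.264 against 0.402 RPKM). Some markers of the professional class II cells were called higher. Dendritic cell markers, all 9 in the table, summed to 18.3 to 31.1 RPKM in AdCMV and 26.9 to 43.8 RPKM in AdVEGF mice, and 3 of the 7 tested (Zbtb46, Clec9a and Cd209a) were called higher. After median-ratio scaling Clec9a was not called (0.75, adjusted p = 0.0891), and the dendritic cell marker Itgax, not called on either scale, was at -0.62 and -0.99. B cell markers, all 5 in the table, summed to 11.96 to 20.6 RPKM and 19.01 to 32.9 RPKM, 2 of the 4 tested (Ms4a1 and Cd79b) were called higher, and Pax5 was at 0 in all AdCMV mice. Most of that sum was Fcer2a, called on neither scale, with a mean of 16.3 RPKM in AdCMV and 21.6 RPKM in AdVEGF mice. After rescaling Ms4a1 was not called (1.45, adjusted p = 0.0623). Kupffer cell markers, 7 of 8 in the table, summed to 86.4 to 187.0 RPKM and 187.1 to 282 RPKM, and 2 of 7 (Clec4f and Vsig4) were called higher on both scales. Most of their sum was Cd5l and C1qa, both called on neither scale, with means of 64.2 and 56.6 RPKM in AdCMV and 107 and 92.1 RPKM in AdVEGF mice. Endothelial markers, all 6 in the table and all called higher on both scales, summed to 20.7 to 41.3 RPKM in AdCMV and 139.7 to 172 RPKM in AdVEGF mice. Prf1 passed the limit for testing only through its AdCMV mean, and Zbtb46, Cd209a and Ms4a1 only through their AdVEGF means. All of these sums are on the deposited RPKM. Of all genes tested, 1.54% were called lower and 13% higher on that scale, and 3.14% and 7.77% after rescaling. With so few markers in each list, the counts called are not evidence of more or fewer cells of a type. The part of the listed cell types in the levels of the MHC genes was not tested.

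The other 12 members were below the limit for testing. H2-Ea-ps, the pseudogene that stands for the class II Eα chain in this haplotype, H2-M1, H2-M9 and H2-M10.1 had 0 reads in all 10 mice, where 3 reads on a transcript of 1 kb, the upper limit that a count of 0 allows, correspond to 0.222 to 0.536 RPKM. H2-Eb2, H2-M5, H2-M11, H2-M10.2, H2-M10.3, H2-M10.4, H2-M10.5 and H2-M10.6 had reads in at least 1 mouse, at most 8 in any of them. These limits cover counting error only.

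The calls rested unevenly on single mice. Without AdCMV mouse 3, the control with the highest share of reads in the members (0.972%), 5 members were called lower, since H2-L, Psmb8, Cd74 and H2-Eb1 lost the call, and without AdVEGF mouse 4 there were 6, since H2-L, Cd74 and H2-Eb1 did. Without AdCMV mouse 4, the control with the lowest share (0.473%), 15 were called. H2-Q5, H2-Q7, H2-Q9, Psmb9 and Tap1 were called lower whichever mouse was left out. As 4 pairs of rows (H2-D1 and H2-L, H2-Q6 and H2-Q8, H2-Q7 and H2-Q9, H2-T22 and H2-T9) overlap in full, the count per locus is lower, 7 of 41 loci on the deposited RPKM and 22 of 41 after median-ratio scaling.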

How the data were processed

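Liver RNA of 5 AdCMV and 5 AdVEGF mice, labelled as biological replicates, was analysed. Per the labels, the authors mapped the reads with TopHat to mm9 and counted them with HOMER; whether strand was used is not stated. The deposited table gives RPKM per RefSeq transcript and mouse and the transcript length, and holds no scaling between libraries beyond the total. The authors' log fold changes and FDR in the same table were not used, and 0 columns belonged to other samples. Whole reads were recovered from the RPKM values (at least 99.925% whole within 0.1 of a read plus the rounding of the file), so that depth was known. The 5 rows without a symbol were left out.

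The test was limma (version 3.58.1, R 4.3.3, with a trend) on log2(RPKM + 0.1) over rows with a group mean over 0.5 RPKM, tested on simulated data. Ratios within a mouse were compared with exact permutation tests (Python 3.11.15, scipy 1.17.1). Alternatives were other scalings (median-ratio, upper quartile, library totals without the 21 Mup rows), pseudocounts of 1 and 0.01, no filter or 1 RPKM, voom on recovered reads, the replicate block and leaving out each mouse. Values by mouse are given for members called on either scale and for 10 genes chosen in any case, other pathway genes where called, with 6 in any case. Members and lists were chosen with earlier results of these data known. Replicates differed by at least 12.5 times counting noise, so none was taken for a repeat. Protein sequences were not used here, and 2 genes of the lists are not reported here.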

Additional observations from a re-analysis of the deposited data

Results flagged for a closer look

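Over 98 groups of 5 values (45 members and 4 ratios in each of 2 groups), 7 held a mouse whose gap to its nearest neighbour exceeded 0.71 of the range, where chance alone gives about 1 in 20. In AdCMV mouse 3 Psmb10 was at 96.1 RPKM (43.5 to 51.2 in the other controls), Psmb8 at 106.9 RPKM (60.2 to 68.7) and Psme2 at 190.2 RPKM (98.0 to 121). In AdVEGF mouse 4 H2-Q9 was at 25.9 RPKM (41.0 to 46.3 in the others), H2-Q4 at 38.8 RPKM (47.7 to 50.9) and the ratio of Psmb8 to Psmb5 at 0.188 (0.315 to 0.325). In AdVEGF mouse 5 H2-D1 was at 202 RPKM (254 to 259.8). AdCMV mouse 3 also had the lowest Mup share of the controls (18.0%, against 32.4% to 50.5%).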

How the results depend on the processing

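Members called lower were 26 with median-ratio scaling, 23 with upper quartile scaling, 25 on totals without the Mup genes and 27 with voom after median-ratio scaling, against 9, and calls over all genes were then 1082, 1125, 1072 and 1135 higher and 438, 393, 447 and 477 lower, against 1808 and 214. With 1 added before the logarithm, 954 genes were called higher. The member H2-Ob was not called, leaving 0 members higher, under those scalings other than voom, with 1 added, with a mean over 1 RPKM or with the block. The members' median log2 fold change moved beyond the spread between mice on totals without the Mup genes (-1.14) and with voom after median-ratio scaling (-1.16). 

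Leaving out 1 mouse gave 5 to 15 members lower and 0 to 1 higher (0 without AdCMV mouse 1, 2, 4 or 5 or AdVEGF mouse 1, 2, 3 or 4), and 1425 to 2357 genes higher. With median-ratio scaling, added after the data were seen, it gave 24, 26, 23, 25 and 25 members lower without AdCMV mice 1 to 5 and 25, 23, 25, 21 and 26 without AdVEGF mice 1 to 5.

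Directions reversed, never as a call, in H2-Q10 (-0.253, -0.209, -0.265 and -0.240), H2-Ke6 (-0.125, -0.0811, -0.137 and -0.117), H2-M3 (-0.131, -0.0885, -0.144 and -0.164), Psmb6 (-0.24, -0.20, -0.26 and -0.24) and Rfx5 (-0.30, -0.25, -0.31 and -0.31) under median-ratio, upper quartile, Mup-free totals and voom with median-ratio, and in H2-M2 (-0.0284, -0.0407 and -0.0461) under these other than upper quartile. Leaving out 1 mouse gave -0.84 to 0.0049 for H2-DMb2, -0.301 to 0.0259 for H2-T24, -0.432 to 0.0608 for H2-T3, -0.35 to 0.0032 for Tap2, -0.14 to 0.11 for Psmb5, -0.219 to 0.0382 for Psmb7 and -0.0239 to 0.251 for the log2 ratio of H2-K1 to H2-Ab1.

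Whether replicate numbers pair the mice cannot be decided from these values. Deviations of mice with the same number correlated weakly but always positively, at 0.0357, 0.109, 0.00763, 0.096 and 0.291. Of the 5 AdCMV mice, 3 correlated best with their own number. With the replicate block 27 members had an adjusted p under 0.05 in limma, against 20 without it. The replicate block gave 11 members lower and 0 higher (26 lower with 1081 and 475 genes called higher and lower when joined to median-ratio scaling, added after the data were seen). For the ratios a paired exact sign-flip test cannot go below 0.0625, and with this pairing the differences of -1.10, -1.61 and -0.49 had adjusted p = 0.0833. Depth limits the members below 0.5 RPKM, where 3 reads are worth up to 0.536 RPKM on 1 kb. The cause of these shifts was not tested.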
